A study of Mus musculus with 6 samples.

Results

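The 10 genes described here carry proteins out of the endoplasmic reticulum (ER) or answer protein overload inside it, and they were read from a table of 36870 gene symbols by their symbols alone. Of the 10, 5 belong to the secretory set linked to the CREB3L transcription factors (Creb3l1, Creb3l2, Sec23a, Sec24d and Kdelr3) and 5 to the general unfolded-protein response (Atf4, Atf6, Xbp1, Ddit3 and Hspa5). The cells were adherent bone marrow mesenchymal stem cells (BMMSCs) of C57BL/6 mice, labelled as passage p2 in both groups. The 3 control libraries are labelled only as control: the treatment protocol in the labels names non-targeting siRNA as the negative control, while the RNA-seq methods of the study speak of vehicle, so which of these the cells received is not settled here. They were compared with 3 siTet1/Tet2 libraries, from cells in which siRNAs against Tet1 and Tet2, enzymes that oxidise methylated cytosine in DNA, were given together. Total RNA was sequenced, and the values are RPKM, reads scaled to gene length and to the mapped reads of a library, as the authors deposited them. The labels do not say whether the 3 libraries of a group came from separate mice or cultures, so the p-values measure the spread between these libraries, which may be technical. All 10 genes passed the minimum mean of 0.1 RPKM and were among the 13266 genes tested.

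Secreted and membrane proteins fold in the ER with the help of chaperones, of which BiP, encoded by Hspa5, is the best known. When unfolded protein builds up, the sensors PERK, IRE1 and ATF6 start separate branches of a response. PERK raises translation of ATF4, whose targets include Ddit3 (CHOP), a factor of prolonged stress. IRE1 splices the mRNA of Xbp1, and ATF6 is cut in the Golgi by the site-1 and site-2 proteases. Creb3l1 (OASIS) and Creb3l2 (BBF2H7) are cut by the same proteases, and are known in bone and cartilage for switching on procollagen and the transport machinery that carries it. Sec23a and Sec24d are parts of the inner COPII coat, which buds cargo such as procollagen from the ER, and Kdelr3 is a receptor that returns escaped chaperones from the Golgi. Splicing of Xbp1 and cleavage of ATF6 or CREB3L proteins are not visible in a value per gene.

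The promoters of 5 of these genes are given. In 3 secretory genes and BiP they carry an exact match to a stress element searched for here, while Ddit3 has no exact match. Each run covers the 100 bases before the RefSeq start and 14 bases from it, on the strand of the gene in GRCm38.p6, with the element in capitals. The windows lie at chr15:79516308-79516421 (plus strand), chr12:59012004-59012117 (minus strand), chr3:123267396-123267509 (plus strand), chr2:34771990-34772103 (plus strand) and chr10:127290693-127290806 (plus strand).
Kdelr3: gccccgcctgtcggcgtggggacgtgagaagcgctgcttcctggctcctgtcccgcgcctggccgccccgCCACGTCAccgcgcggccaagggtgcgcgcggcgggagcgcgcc
Sec23a: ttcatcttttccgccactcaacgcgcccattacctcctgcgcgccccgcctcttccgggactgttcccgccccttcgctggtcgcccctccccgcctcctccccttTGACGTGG
Sec24d: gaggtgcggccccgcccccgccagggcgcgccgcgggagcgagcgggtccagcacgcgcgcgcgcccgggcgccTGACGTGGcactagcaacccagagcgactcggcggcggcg
Hspa5: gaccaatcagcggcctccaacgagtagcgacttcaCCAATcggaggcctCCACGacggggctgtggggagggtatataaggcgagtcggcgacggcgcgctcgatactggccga
Ddit3: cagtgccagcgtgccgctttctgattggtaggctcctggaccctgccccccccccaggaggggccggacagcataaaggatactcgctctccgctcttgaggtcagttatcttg

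Matching RefSeq promoters were found for 8 of the 10 genes, and each promoter of 300 bases was searched on both strands for 3 sets of letters. The unfolded-protein-response element TGACGTGG was present in Kdelr3, Sec23a and Sec24d, against 222 of 32851 promoters (0.676%) in the whole table. Its match in Kdelr3 lay on the minus strand and reads CCACGTCA in the run above, 30 bases before the start. In Sec24d the match began 26 bases before the start, and in Sec23a it began at base 7 of the transcript. The ER stress response element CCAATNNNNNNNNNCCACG was present in Hspa5, 65 bases before the start, and in 39 promoters (0.119%) of the table. The reverse strand of TGACGTGG begins with CCACG, the last letters of the ER stress response element, so the searches overlap in those letters. The cyclic AMP response element TGACGTCA was in none of the 8 and in 1.79% of all promoters. None of these exact letters was found in the promoters of Creb3l2, Atf4, Xbp1 or Ddit3. Variants of an element with a changed letter were not searched for, so these promoters may still hold such variants. A match is a description of the sequence, not of binding.

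The targeted Tet2 had 2.57, 4.08 and 3.71 RPKM in the control libraries and 0.36, 0.24 and 0.20 RPKM in the siTet1/Tet2 libraries, a fall of 1.80 on the log2(RPKM + 1) scale (SE 0.13, limma adjusted p = 2.88e-05). Tet1 was at 0.03 to 0.10 RPKM in controls and at 0.001 to 0.01 RPKM after siRNA, below the minimum for a test, where 0.001 is the lowest value the table lists. Tet3 had means of 7.03 and 7.66 RPKM (adjusted p = 0.508). Marker genes moved with the groups. The summed RPKM of 20 stromal markers was 1415 to 1794 in controls and 552 to 702 after siRNA, a ratio of 0.398, with 13 of 17 tested markers lower and 2 higher, and with Thy1, Lum and Lepr under the minimum. The summed RPKM of 18 macrophage markers was 9394 to 12255 and 17845 to 20879, a ratio of 1.77, with 9 higher and 3 lower and none at the lowest listed value, so the cells labelled as BMMSCs also held high levels of macrophage transcripts. Of the smaller marker sums, osteoclast genes went from 12.4 to 15.9 RPKM up to 22.5 to 26.7, and granulocyte genes from 3.40 to 3.54 up to 9.27 to 16.2, with S100a9 at the lowest value throughout. B and plasma cell genes went from 43.0 to 50.8 RPKM down to 20.4 to 24.7, with Ighm at the lowest value throughout. Endothelial genes went from 2.44 to 2.88 RPKM down to 1.35 to 1.48. Few genes of these small lists were tested, and they did not all move with the sum. Of tested osteoclast markers, 2 of 3 were higher and 0 lower, and of granulocyte markers 1 of 2 was higher and 1 lower. Of B and plasma cell markers, 1 of 4 was lower and 1 higher, and of endothelial markers 2 of 4 were lower and 1 higher. In bulk RNA, fewer cells of a type and less RNA per cell cannot be told apart, and the part of these marker shifts in the results below was not tested.

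Of the 10 genes, 6 fell after siTet1/Tet2 and none rose at a limma adjusted p under 0.05. Among all genes tested, 3952 (29.8%) fell and 1953 (14.7%) rose under the same rule, and 6940 genes had an unadjusted p under 0.05. Kdelr3, Ddit3 and Creb3l1 lost most of their RNA, Sec23a and Hspa5 fell by smaller steps, and Atf4 fell least of the 6. These 6 were 3 of the 5 secretory genes and 3 of the 5 unfolded-protein-response genes, so each role held both genes that fell and genes that did not pass. With the thresholds of the study, an unadjusted p under 0.05 and a change over 2-fold, Kdelr3, Ddit3 and Creb3l1 passed, all lower, against 747 genes (5.63%) in the whole table. In 8 of the 10 genes every siTet1/Tet2 library lay below every control library, which held for 35.9% of all genes tested.

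**Figure D1:**
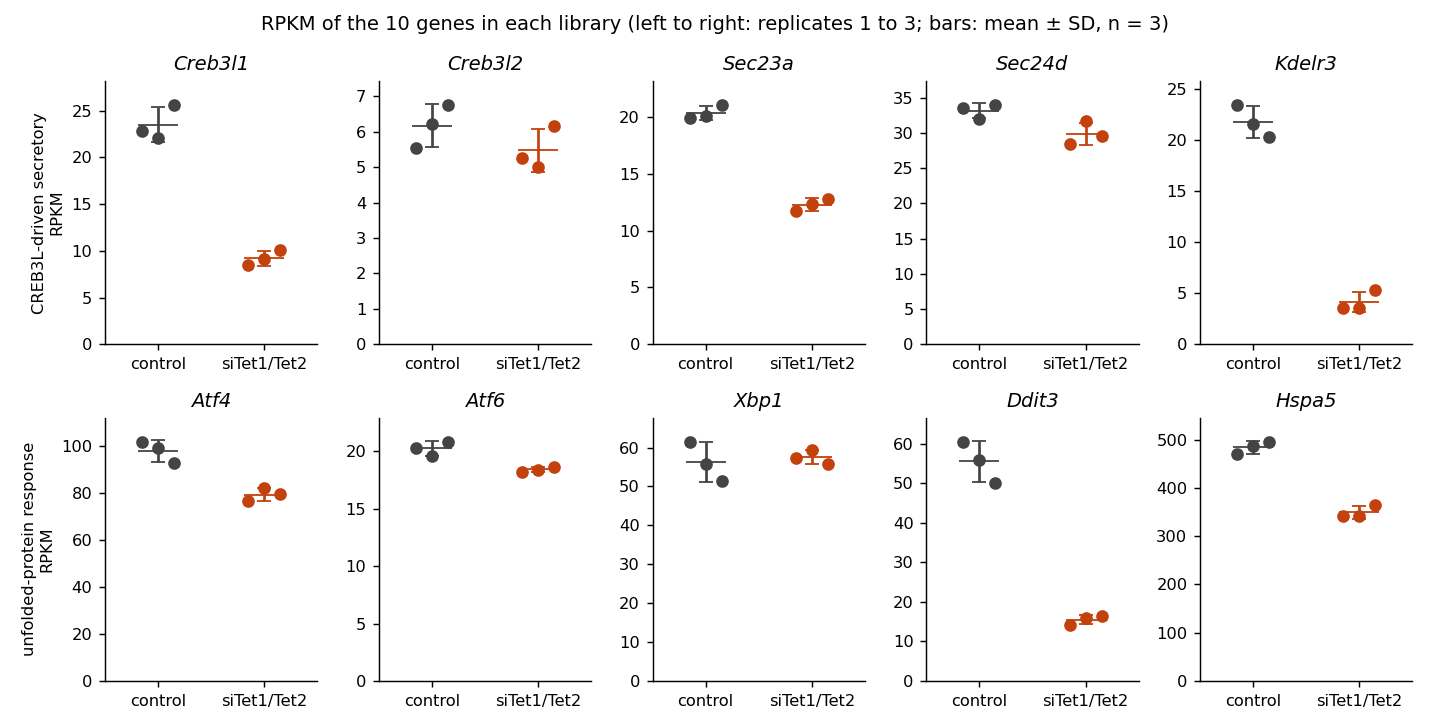
RPKM of each of the 10 genes in the 3 control (grey) and 3 siTet1/Tet2 (orange) libraries, replicates 1 to 3 from left to right, with the mean ± SD as a bar and each axis starting at 0. The groups lie apart in every panel but Creb3l2 and Xbp1, and the widest gaps are in Kdelr3, Ddit3 and Creb3l1.

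Creb3l1 (chr2:91982328-92024502, minus strand), the OASIS factor, had 22.8, 22.1 and 25.6 RPKM in the control libraries and 8.43, 9.16 and 10.0 RPKM in the siTet1/Tet2 libraries. Every siRNA library was far below every control, and the mean went from 23.5 ± 1.85 to 9.21 ± 0.811 RPKM (SD, n = 3 each), 39.2% of control. The difference was -1.26 on the log2(RPKM + 1) scale (SE 0.09, limma adjusted p = 2.11e-05). Its relative Creb3l2 (chr6:37327255-37442146, minus strand), BBF2H7, had 5.53, 6.23 and 6.76 RPKM in controls and 5.27, 4.99 and 6.17 RPKM after siRNA. These ranges overlapped, and the difference of -0.15 had a 95% interval from -0.39 to 0.09 (adjusted p = 0.284). Per length, Creb3l1 stood above Creb3l2 in every library of both groups.

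The other factors of this family did not pass the test. Creb3, a family member expressed in many tissues, had means of 51.5 ± 9.65 and 43.4 ± 0.745 RPKM (n = 3 each, limma adjusted p = 0.18), and it passed as lower once control replicate 3, at 40.4 RPKM, was left out (adjusted p = 0.000554) or with every library brought to the same sum (adjusted p = 0.0458). Creb3l3 and Creb3l4 stayed under 1 RPKM in every library, with adjusted p-values of 0.183 and 0.149. Atf6b, the close relative of Atf6, had means of 40.8 and 44.3 RPKM (adjusted p = 0.151), and it passed as higher when libraries were scaled by median ratios (adjusted p = 0.0177) or quantiles (adjusted p = 0.0167). Of the proteases that cut CREB3L and ATF6 proteins, Mbtps1 (site-1 protease) fell from 25.8 ± 1.54 to 20.7 ± 0.470 RPKM (n = 3 each, limma adjusted p = 0.00579). Mbtps2 (site-2 protease) was at 10.2 and 11.1 RPKM (adjusted p = 0.304). With quantile scaling, Mbtps2 and Creb3l4 passed as higher (limma adjusted p = 0.0234 and 0.00289).

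Sec23a (chr12:58958383-59012017, minus strand), which activates the GTPase of the COPII coat, had 19.9, 20.1 and 21.1 RPKM in controls and 11.7, 12.3 and 12.8 RPKM after siRNA. The libraries were tight within each group, and the mean went from 20.4 ± 0.633 to 12.3 ± 0.564 RPKM (SD, n = 3 each), 60.4% of control. The difference was -0.68 (SE 0.07, limma adjusted p = 0.000105). Of its 4840 annotated exon bases, 431 are shared with Gm17529 on the other strand, and the sources used here do not say whether counting used strand. Sec24d (chr3:123267455-123365641, plus strand), the cargo adaptor that pairs with Sec23, had 33.5, 32.0 and 34.0 RPKM in controls and 28.4, 31.6 and 29.5 RPKM after siRNA. The highest siRNA library was just below the lowest control, and the difference of -0.15 (95% interval -0.29 to -0.0015) did not pass after adjustment (limma adjusted p = 0.0927).

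Kdelr3 (chr15:79516411-79527739, plus strand), which retrieves chaperones that carry a KDEL tail, had 23.4, 21.5 and 20.3 RPKM in controls and 3.54, 3.58 and 5.30 RPKM after siRNA. Even the highest siRNA library was far under the lowest control, and the mean went from 21.7 ± 1.59 to 4.14 ± 1.01 RPKM (SD, n = 3 each), 19.1% of control. The difference was -2.16 (SE 0.13, limma adjusted p = 1.31e-05), and 0.98% of the genes tested had a larger decrease. Its exons share 4 of 1411 bases with Ddx17 on the other strand, and Ddx17 had means of 88.3 and 89.3 RPKM (adjusted p = 0.875). The paralogs differed from it in size: Kdelr2 fell from 68.6 ± 2.23 to 38.4 ± 1.19 RPKM (difference -0.82, SE 0.06, adjusted p = 2.06e-05). Kdelr1 was at 71.3 ± 5.83 and 66.6 ± 0.748 RPKM (adjusted p = 0.304), and passed as lower without control replicate 3 (adjusted p = 0.0346) or with every library brought to the same sum (adjusted p = 0.0485).

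Atf4 (chr15:80255184-80257541, plus strand), the effector of the PERK branch, had 101.9, 99.1 and 92.9 RPKM in controls and 76.4, 82.1 and 79.5 RPKM after siRNA. The groups lay apart by a modest step, with means of 98.0 ± 4.58 and 79.3 ± 2.83 RPKM (SD, n = 3 each), 81.0% of control. The difference was -0.30 (SE 0.06, limma adjusted p = 0.0046). Ddit3 (chr10:127290774-127296288, plus strand), the CHOP factor that ATF4 induces, had 60.5, 55.9 and 50.2 RPKM in controls and 14.3, 15.8 and 16.5 RPKM after siRNA. No siRNA library came near a control, and the mean went from 55.6 ± 5.18 to 15.5 ± 1.13 RPKM (SD, n = 3 each), 27.9% of control. The difference was -1.78 (SE 0.09, limma adjusted p = 3.91e-06), and 1.75% of genes tested fell further. Its exons share 68 of 1713 bases with Mars, the methionyl-tRNA synthetase gene on the other strand, which went from 22.9 to 18.4 RPKM (adjusted p = 0.00727).

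Atf6 (chr1:170704674-170867771, minus strand), the membrane-bound sensor, had 20.3, 19.6 and 20.9 RPKM in controls and 18.2, 18.4 and 18.7 RPKM after siRNA. The ranges did not overlap, but the difference of -0.13 (95% interval -0.27 to 0.01) did not pass (limma adjusted p = 0.114). Xbp1 (chr11:5520659-5525893, plus strand), the target of IRE1 splicing, had 61.5, 55.8 and 51.3 RPKM in controls and 57.4, 59.4 and 55.8 RPKM after siRNA. Every siRNA library fell within the control range, and the difference was 0.04 (95% interval -0.13 to 0.21, adjusted p = 0.71). Hspa5 (chr2:34771970-34777547, plus strand), the BiP chaperone, had 470.3, 486.1 and 495.9 RPKM in controls and 342.4, 341.5 and 364.8 RPKM after siRNA. The groups lay well apart, with means of 484.1 ± 12.9 and 349.6 ± 13.2 RPKM (SD, n = 3 each), 72.2% of control, and a difference of -0.47 (SE 0.07, limma adjusted p = 0.000794).

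**Figure D2:**
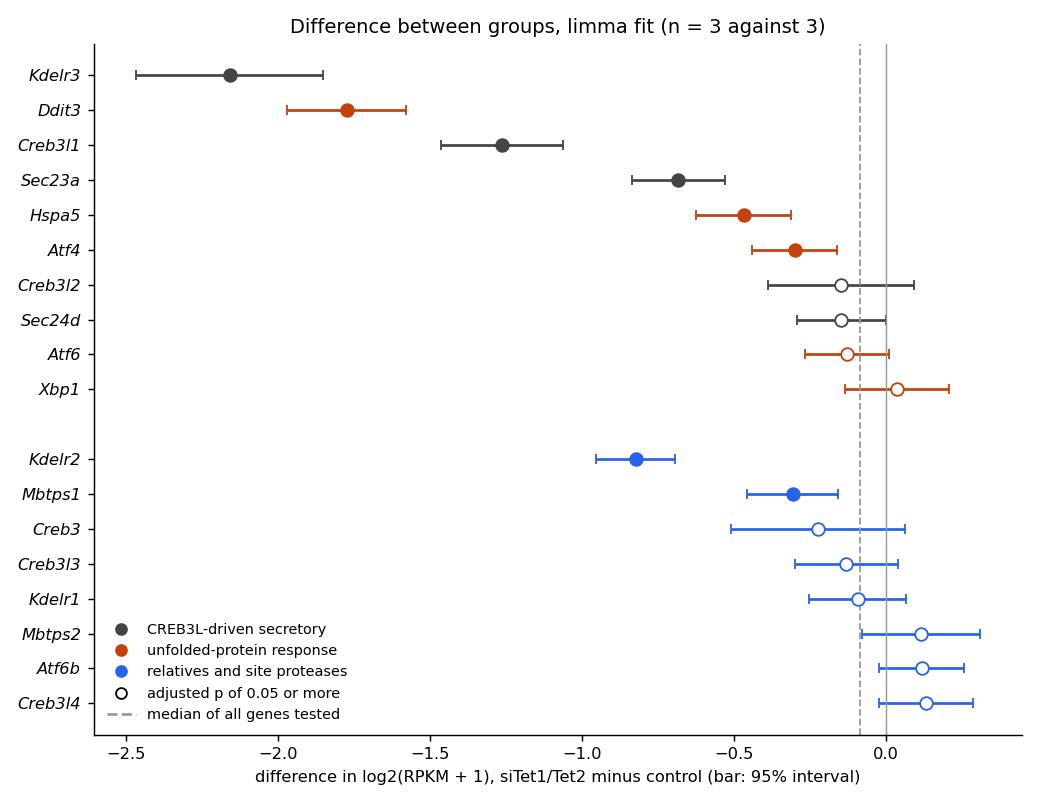
Difference in log2(RPKM + 1), siTet1/Tet2 minus control, with its 95% interval (n = 3 against 3), for the 5 secretory genes (grey), the 5 unfolded-protein-response genes (orange) and their relatives and proteases (blue). Filled points have a limma adjusted p under 0.05, and the dashed line is the median of all genes tested, -0.09. Kdelr3 and Kdelr2 lie far left of Kdelr1, and Ddit3 far left of Atf4, Atf6 and Xbp1.

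Set against each other, the roles overlapped gene by gene. The secretory genes ran from -2.16 to -0.15 with a median of -0.68, and the unfolded-protein-response genes from -1.78 to 0.04 with a median of -0.30. The median over all genes tested was -0.09, so relative to it Kdelr3 was at -2.07, Ddit3 at -1.69 and Creb3l1 at -1.18, while Xbp1 was at 0.12. That median depended on scaling: it was -0.16 with every library brought to the same sum, -0.01 with median ratios and 0.06 with quantiles. Of the genes called, 66.9% were lower with the deposited scaling and 74.2%, 53.5% and 42.1% with those alternatives. Under each of these scalings the same 6 genes fell and none of the 10 rose.

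The order of levels also shifted. In controls, Hspa5 stood highest per length, followed by Atf4, then Xbp1 and Ddit3 with overlapping ranges, then Sec24d. Creb3l1, Kdelr3, Sec23a and Atf6 followed, each overlapping with its neighbour, and Creb3l2 stood lowest. After siRNA the order was Hspa5, Atf4, Xbp1, Sec24d, Atf6, Ddit3, Sec23a and Creb3l1, with no overlap between neighbours, and then Creb3l2 and Kdelr3, whose ranges overlapped. Kdelr3 thus moved from rank 7 of 10 to the lowest level, and Ddit3 from the range of Xbp1 to below Atf6.

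Ratios of 2 genes within a library do not change when the whole library is multiplied by 1 factor, though quantile scaling can change them. Such ratios were compared for 10 pairs, on the deposited values. The pairs were chosen after the values were seen, and with 3 against 3 libraries the smallest exact two-sided permutation p is 0.1, so no pair could pass 0.05. The log2 ratio of Creb3l1 to Creb3l2 was 2.05, 1.83 and 1.92 in the control libraries and 0.68, 0.88 and 0.70 in the siTet1/Tet2 libraries. Kdelr3 to Kdelr1 stood at -1.71, -1.75 and -1.68 in controls and at -4.25, -4.22 and -3.64 after siRNA, so Kdelr3 parted from its paralog in every siRNA library. For Ddit3 to Atf4 the values were -0.75, -0.83 and -0.89 in controls and -2.42, -2.38 and -2.27 after siRNA.

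The other pairs compared subunits of the coat, stress branches and retrieval receptors. Sec23a to Sec23b went from a mean of -0.89 ± 0.13 to -1.45 ± 0.15, and Sec23a to its partner Sec24d from -0.70 ± 0.04 to -1.28 ± 0.08 (SD, n = 3 libraries each). Hspa5 to Xbp1 went from 3.11 ± 0.17 to 2.60 ± 0.10, and Atf6 to Atf6b from -1.01 ± 0.06 to -1.26 ± 0.06. The ratio of Kdelr3 to Kdelr2 differed by -1.58 between groups, and that of Kdelr3 to Hspa5, a chaperone with a KDEL tail, by -1.95. In these 9 pairs the groups did not overlap (exact permutation p = 0.1, 0.111 after Benjamini-Hochberg adjustment over 10 pairs). Sec24d to Sec24c overlapped between groups, with a difference of -0.06 (exact permutation p = 0.5).

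**Figure D3:**
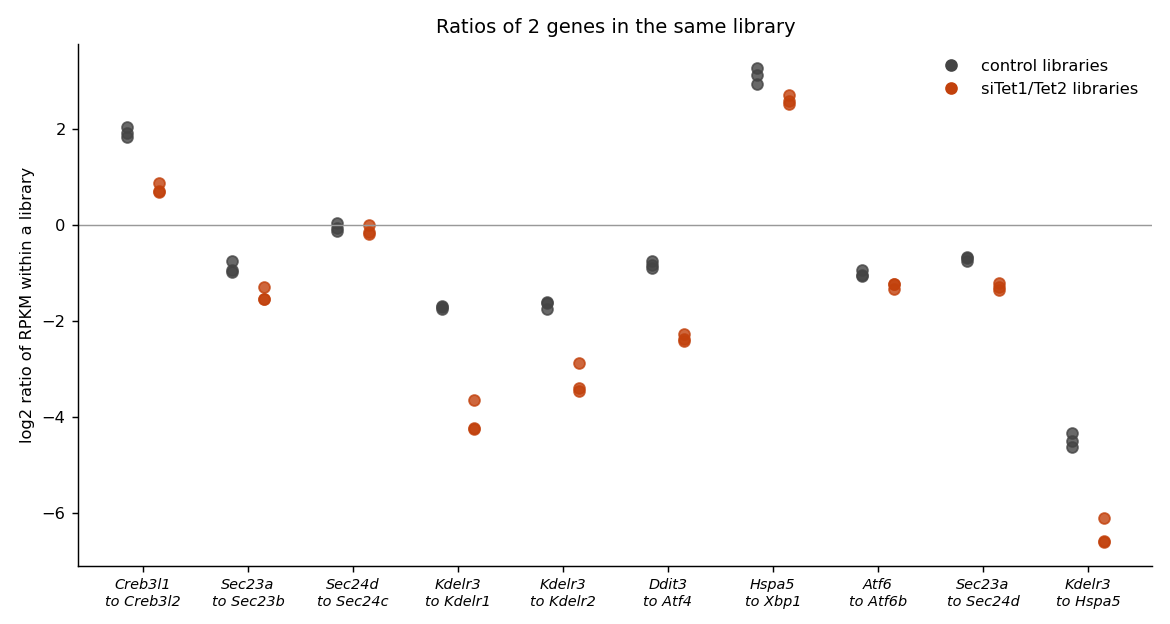
Log2 ratio of the RPKM of 2 genes in the same library, for 10 pairs, in the 3 control (grey) and 3 siTet1/Tet2 (orange) libraries, each point being 1 library. The groups are apart in every pair but Sec24d to Sec24c, and siTet1/Tet2 replicate 3 is the highest orange point for the ratios of Kdelr3 to Kdelr1, Kdelr2 and Hspa5.

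Within the groups, 7 of the 10 genes were highest in siTet1/Tet2 replicate 3 of the siRNA libraries, among them Kdelr3, Creb3l1, Sec23a, Ddit3 and Hspa5, and that library also had the highest stromal marker sum, 702 RPKM. In controls, 6 of the 10, Creb3l1, Creb3l2, Sec23a, Sec24d, Atf6 and Hspa5, were highest in replicate 3, as was the stromal sum, 1794 RPKM. The other 4, Kdelr3, Atf4, Xbp1 and Ddit3, were lowest in that library. The matching shares over all genes tested were not counted, and a link with the stromal sum was not tested. Without siTet1/Tet2 replicate 3, or any other single library, the differences of Kdelr3 stayed between -2.32 and -2.08 and those of Creb3l1 between -1.32 and -1.20, and the same was true of direction and call for all 6 genes that fell.

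Around the 10 genes, lists of the wider pathway were counted, 131 genes in all, of which 59 (45.0%) fell and 9 (6.87%) rose, against 29.8% and 14.7% of all genes tested. The 59 included all 8 procollagen chains and all 13 of their folding enzymes, while the share that fell in the other lists ran from 7.69% to 64.7%. The lists were chosen with earlier results of these data known, so the pooled share only describes them. Of 24 COPII and ER exit genes, 5 (20.8%) fell (Sec31a, Lman1, Sec16b, Ctage5 and Sar1a) and 1 (4.17%) rose, with a median of -0.10. Both shares were below those of all genes tested. Sec31a, the outer coat subunit, fell from 51.6 ± 2.05 to 36.3 ± 0.957 RPKM (n = 3 each, limma adjusted p = 0.000257). Tmed10, a cargo receptor between ER and Golgi, rose from 55.3 ± 1.76 to 74.3 ± 0.121 RPKM (n = 3 each, limma adjusted p = 0.000405). Mcfd2, the most highly expressed of the list and partner of the cargo receptor Lman1, was at 139.5 and 136.1 RPKM (adjusted p = 0.742). The count that fell ran from 3 with quantile scaling to 9 with equal sums, and the count that rose was 2 with a replicate block, 3 with median ratios and 4 with quantiles, so that with quantiles more of these genes rose than fell.

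Of 14 COPI and KDEL retrieval genes, 6 (42.9%) fell and none rose, with a median of -0.14, and 1 rose with median ratios or quantiles. Besides Kdelr2 these were Copz2, Copg1, Arf4, Arcn1 and Copb2, coat subunits and a coat GTPase. Arf1, the most highly expressed, was at 191.6 and 199.6 RPKM (limma adjusted p = 0.539). The TGACGTGG letters seen in Kdelr3 were in the promoters of 4 of the 12 genes of this list that had a promoter. Of these 4, Copb2 fell (limma adjusted p = 0.029), whereas Arf1, Copb1 and Gbf1 did not pass. Over all pathway lists the letters were in 6 of 111 genes with a promoter (5.41%).

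Many chaperones beside BiP fell, by modest steps. Of 17 ER chaperones and folding enzymes, 11 (64.7%) fell and none rose, with a median of -0.27. Ero1l, the oxidase that recharges protein disulphide isomerase, had the largest decrease, from 19.7 ± 2.76 to 11.3 ± 1.12 RPKM (n = 3 each, limma adjusted p = 0.0009). The isomerases Pdia4 and Pdia6 fell by 0.55 and 0.53 on the log2 scale, whereas calreticulin (Calr), the most abundant, was at 786 and 741 RPKM (adjusted p = 0.481). The ER stress response element seen in Hspa5 was in 6 of the 15 genes of this list that had a promoter. Of these 6, Pdia6, Creld2, Hsp90b1 and Dnajc3 fell, whereas Calr and Canx did not pass. In the whole list, the count that fell was 7 without control replicate 2, without siTet1/Tet2 replicate 1 or 2, and with median ratio scaling. In that list, 1 gene rose with a replicate block, median ratios, quantiles or without control replicate 1.

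Few genes of the IRE1-XBP1 branch and of ER-associated degradation passed the test. Of 13, 1 (7.69%) fell and 1 rose, with a median of -0.05, and with median ratios or quantiles none fell and 3 rose. Edem2, which trims sugars on misfolded glycoproteins, rose from 20.6 ± 0.259 to 36.2 ± 2.54 RPKM (n = 3 each, limma adjusted p = 5.7e-05). Vimp, a membrane selenoprotein of the degradation complex, fell from 63.6 to 54.8 RPKM (adjusted p = 0.0331), a call lost without control replicate 1 or 2, without siTet1/Tet2 replicate 2 or 3, with no filter on low values, with median ratios or quantiles, and without the variance trend. Os9, a lectin of that complex, was at 69.2 and 76.1 RPKM (adjusted p = 0.0668).

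The PERK-ATF4 list held the widest spread, with 10 of 19 genes (52.6%) lower, 4 (21.1%) higher and a median of -0.45. Nupr1, a small stress protein, fell furthest, from 69.1 ± 5.02 to 13.6 ± 4.44 RPKM (n = 3 each, limma adjusted p = 6.48e-05). Asns (asparagine synthetase), Ddit4, Trib3 and Chac1 of this list fell with it, by 1.47, 1.47, 1.26 and 1.25 on the log2 scale. The serine and folate enzymes Phgdh, Mthfd2 and Shmt2 fell as well. Cebpg, the dimer partner of ATF4, rose from 13.9 ± 0.101 to 21.2 ± 1.82 RPKM (n = 3 each, adjusted p = 0.000473), and Atf3 from 136.3 to 200.8 RPKM (adjusted p = 0.000355). The others that rose were PERK itself (Eif2ak3) and Cebpb, and the count that rose was 2 when any library other than control replicate 3 was left out, with no filter or with equal sums. Psat1, Slc7a11, Ppp1r15a, Ppp1r15b and Slc3a2 of the same list did not pass. Slc3a2, an amino acid transporter subunit and the most highly expressed of them, had 183.9 and 168.1 RPKM (adjusted p = 0.157).

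In the main fit, the cargo and its own folding enzymes fell throughout. All 13 procollagen folding enzymes fell, with a median of -1.01, from Plod1, a lysyl hydroxylase, at 175.1 and 147.2 RPKM (limma adjusted p = 0.0132), to Fkbp10, a prolyl isomerase, at 48.0 ± 3.07 and 9.36 ± 3.05 RPKM (n = 3 each, adjusted p = 4.55e-05). All 8 procollagen chains fell, with a median of -2.32. Col1a1 had 416, 394 and 655 RPKM in controls and 48.4, 64.2 and 103.7 RPKM after siRNA (limma adjusted p = 0.000122), with replicate 3 the highest of each group, and Col3a1 went from 124.6 ± 31.3 to 14.1 ± 5.43 RPKM (n = 3 each, limma adjusted p = 5.52e-05). The decreases of Kdelr3 and Ddit3 lay within the range of the collagen chains, -3.10 to -1.27, and that of Creb3l1 just short of it.

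**Figure D4:**
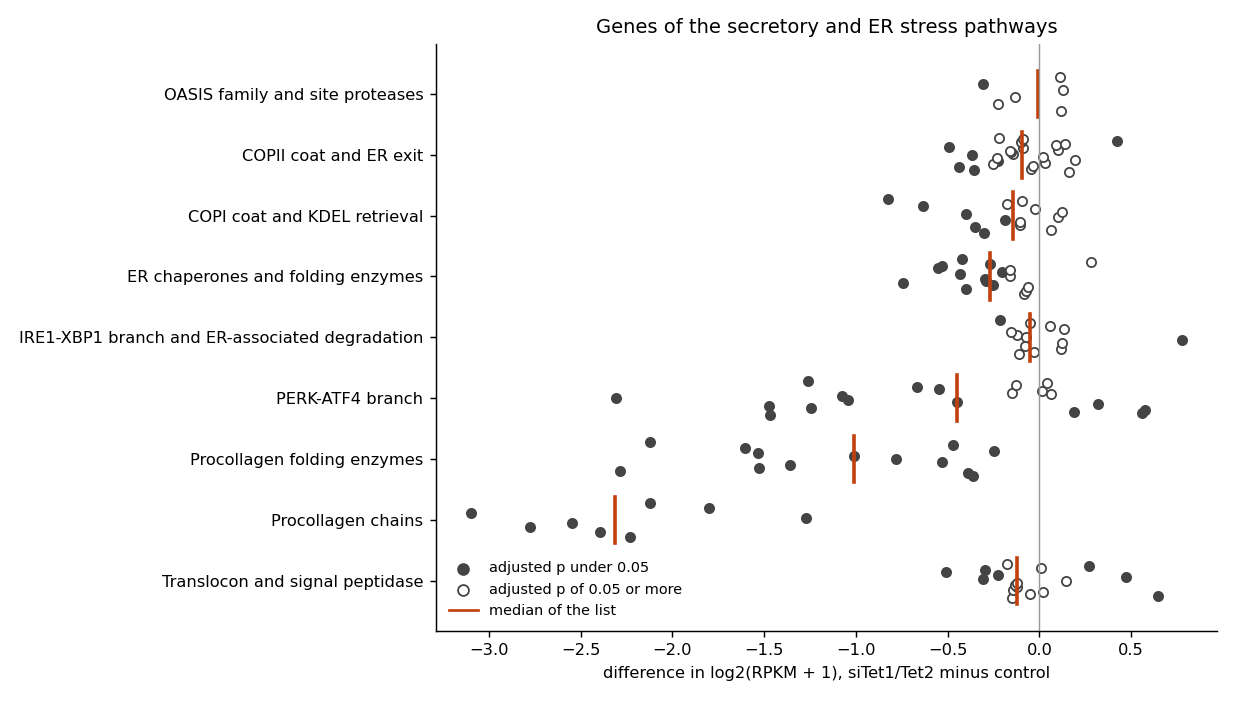
Difference in log2(RPKM + 1), siTet1/Tet2 minus control, for the genes of 9 pathway lists, 1 point a gene, filled where the limma adjusted p is under 0.05, with the list median in orange. The chains and folding enzymes of procollagen lie wholly left of 0, the PERK-ATF4 genes spread from -2.31 to 0.58, and the IRE1-XBP1 and degradation genes cluster near 0 apart from Edem2.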

How the data were processed

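Total RNA of 3 control and 3 siTet1/Tet2 BMMSC samples was sequenced by the authors as paired-end libraries, and the deposited RPKM values, normalized by them per gene length and mapped reads, are labelled GRCm38. Per the study's methods, adaptor trimming, mapping and estimation of abundance used DNASTAR Lasergene. Those methods speak of FPKM where the file header says RPKM, and whether counting used strand is not given in the sources used here. A column of the authors' p-values was not used. Of 36915 rows, 37 symbols were listed more than once and the row of highest mean represents each. Differences in log2(RPKM + 1) were tested with limma 3.58.1 in R 4.3.3 (empirical Bayes with trend, two-sided) over genes averaging 0.1 RPKM or more, with Benjamini-Hochberg adjustment over all 13266. Fold changes of low genes are understated on this scale, and the script was tested on simulated data. Low values gave estimated depths of 32400000 to 38600000 reads a library, but only 50.2% to 58.4% of low values were within 0.1 of a whole read, so no count test was run. At these depths the thinnest of the 10 genes, Kdelr3, rested on an estimated 192 reads or more in each library. Replicates correlated at r = 0.992 to 0.997 across genes within groups. Libraries of the same replicate number deviated together (r = 0.149, 0.117 and 0.462 for numbers 1 to 3), so a fit with the number as a replicate block was an alternative, although control replicates 1 and 2 correlated better with siTet1/Tet2 replicates 2 (r = 0.332) and 1 (r = 0.205). Others were pseudocounts of 0.1 and 0.01, no filter or a minimum mean of 1 RPKM, 3 other scalings, no trend, and each library left out. The members and lists were chosen with earlier results of these data known. Named were the 10 genes, the Tet genes, CREB3L relatives, their proteases, Kdelr1 and Kdelr2, and in each other list the gene with the highest mean and those with the largest decrease and increase among called genes whose groups did not overlap. Other names were added after their values were seen. Promoters were taken from RefSeq (GRCm38.p6) and gene positions from GENCODE M21 on GRCm38.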

Additional observations from a re-analysis of the deposited data

How the results depend on the processing

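Over 15 alternatives, 6 or 7 of the 10 genes fell and none rose, and the thresholds of the study were passed by the same number, 3, each time. The count of 7 came with no filter on low values, where Atf6 passed (limma adjusted p = 0.0493). With a replicate block, 6 fell and Creb3l1 differed by -1.26, and the block changed no call among the 10. Leaving out 1 library at a time gave -1.32 to -1.20 for Creb3l1, -2.32 to -2.08 for Kdelr3 and -1.85 to -1.71 for Ddit3. The call nearest the threshold was that of Atf4, with adjusted p-values up to 0.0297 over the alternatives. Atf6 ran from -0.20 to 0.00, the latter with quantile scaling, and Xbp1 from -0.03, with equal sums or without control replicate 3, to 0.13 with median ratios. Over all genes, the 3952 lower and 1953 higher became 2627 and 3607 with quantile scaling and 2514 and 1230 with no filter. Counts in the lists moved too: COPII genes that fell ran from 3 to 9 and those that rose from 1 to 4, chaperones that fell from 7 to 13, PERK-ATF4 genes that rose from 2 to 5, IRE1-XBP1 and degradation genes that fell from 0 to 2 and those that rose from 1 to 3, and OASIS family and protease genes that rose from 0 to 3. Procollagen folding enzymes that fell ran from 12 to 13, procollagen chains from 7 to 8, and COPI and KDEL retrieval genes from 5 to 9. With 3 libraries a group and depths that are estimates, small differences such as that of Sec24d could not be separated from the spread after adjustment.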

Other observations

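RNA levels were compared for 17 translocon, signal peptidase and signal recognition genes, while entry into the ER itself was not measured. Of the 17, 4 (23.5%) fell, 3 (17.7%) rose and 10 did not pass, near the 29.8% and 14.7% of all genes tested. Their median was -0.12 on the log2(RPKM + 1) scale. Ssr2, a translocon-associated subunit, had the largest decrease, from 81.4 ± 9.31 to 56.6 ± 1.44 RPKM (SD, n = 3 each, limma adjusted p = 0.00177), and Ssr1, Ssr3 and Spcs3 also fell. Sec11c, a catalytic subunit of signal peptidase, rose from 68.5 ± 5.52 to 107.6 ± 5.03 RPKM (n = 3 each, limma adjusted p = 0.000234), while its paralog Sec11a was at 71.2 and 63.8 RPKM (adjusted p = 0.247). Srpr, the receptor for the signal recognition particle, and Tram1 rose as well. Ssr4 was the most highly expressed, at 142.5 ± 36.5 and 140.2 ± 9.87 RPKM, with control replicate 3 lowest at 100.6 RPKM (n = 3 each, limma adjusted p = 0.969). The count that fell was 7 without control replicate 3.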
